A study of Mus musculus with 9 samples.

Results

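The proteasome subunit genes were taken as all probes whose gene symbol begins with Psma, Psmb, Psmc, Psmd or Psme followed by a digit. This rule gave 44 of the 33012 probes on the array and 40 of the 15674 genes with a symbol. By their roles the 40 genes were 7 subunits of the alpha ring, 4 beta subunits without a catalytic site, 3 constitutive catalytic subunits, 3 immunoproteasome subunits, 6 base ATPases, 2 other base subunits, 7 lid subunits, 3 chaperones of the base and 4 activator genes. The remaining gene, Psmc3ip, shares only the name, since its product binds Psmc3 and acts in meiotic recombination. It meets the rule and was kept in the counts of members and of members tested.

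The arrays were 9 Applied Biosystems arrays, each hybridised with RNA from the jejunum of a single male mouse. The mice were of OF1, an outbred stock, were 7 weeks old, belonged to generation 3 of a feeding trial and carried no engineered allele according to the labels. They had received feed B (mice 7, 8 and 10), feed K (mice 1, 3 and 4) or feed G (mice 4, 8 and 11), and the sources used here do not say what the letters mean. The trial tested a maize diet made to order, in mice under conventional housing, but which feed held it is not given, so none is called a control here. The time of day of sampling was neither noted nor balanced over the groups according to the methods, so that time of day and feed cannot be told apart in any feed difference below. Feeds are compared below as K minus B, G minus B and G minus K, and these comparisons share mice.

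The proteasome is the large protease that degrades proteins tagged with ubiquitin. Its 20S core is a barrel of outer alpha rings, which gate the entrance, and inner beta rings, which hold the catalytic sites of Psmb5 (chymotrypsin-like), Psmb6 (caspase-like) and Psmb7 (trypsin-like). Caps bind the ends of the barrel: the 19S cap, with a ring of ATPases in its base and a lid that removes ubiquitin, or the activators PA28 and PA200. Interferon gamma induces a set of replacement subunits, Psmb8 for Psmb5, Psmb9 for Psmb6 and Psmb10 for Psmb7, together with the PA28 genes Psme1 and Psme2. The core with these subunits, the immunoproteasome, yields peptides suited to MHC class I molecules, and the Tap1 and Tap2 transporter carries such peptides into the endoplasmic reticulum. In the small intestine the immunoproteasome subunits are found in leukocytes and also in the epithelium.

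Psmb9 (chr17:34182030-34187330) and Tap1 (chr17:34187556-34197225) lie head to head in the MHC region, with 225 bases between their annotated starts, and Psmb8 starts 10639 bases beyond the start of Tap1. The stretch between the Psmb9 and Tap1 starts and the 250 bases before the Psmb8 start are shown because Psmb8 and Psmb9 varied most of all members and varied together with Tap1, and the 250 bases before the start of Psmb5 because Psmb5 is the constitutive counterpart of Psmb8 and was among the least variable members. All are RefSeq sequences of GRCm38.p6, read 5′ to 3′. The first and second are on the plus strand at chr17:34187331-34187555 and chr17:34197945-34198194, and the third is on the minus strand at chr14:54617996-54618245. Capitals mark matches to a motif.
Psmb9 and Tap1: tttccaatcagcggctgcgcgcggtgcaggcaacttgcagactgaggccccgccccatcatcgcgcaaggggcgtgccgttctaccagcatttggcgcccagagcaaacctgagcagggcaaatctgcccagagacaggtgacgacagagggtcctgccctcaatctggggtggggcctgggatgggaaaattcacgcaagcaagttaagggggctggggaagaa
Psmb8: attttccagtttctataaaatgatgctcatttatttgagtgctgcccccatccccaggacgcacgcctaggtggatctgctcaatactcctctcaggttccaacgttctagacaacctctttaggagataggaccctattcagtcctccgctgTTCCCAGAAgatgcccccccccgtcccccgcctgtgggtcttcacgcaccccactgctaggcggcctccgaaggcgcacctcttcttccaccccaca
Psmb5: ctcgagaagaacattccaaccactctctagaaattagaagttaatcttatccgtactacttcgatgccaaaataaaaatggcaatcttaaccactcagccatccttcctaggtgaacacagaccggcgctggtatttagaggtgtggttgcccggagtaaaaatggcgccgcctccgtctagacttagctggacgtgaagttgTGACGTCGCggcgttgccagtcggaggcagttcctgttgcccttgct

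Motifs were searched on both strands in the 250 bases before each annotated start. The gamma-activated site, TTCNNNGAA, reads the same on both strands and was matched in the Psmb8 window only among the 34 subunit genes with a window, which is 2.70% of their 37 windows against 7.02% of all 32851 windows. The antioxidant response element core, TGACNNNGC, was matched in the windows of Psmb5, Psmb6, Psmc6, Psmd9 and Psmd12, which is 13.5% of the subunit windows against 10.2% of all windows. The interferon regulatory factor element, GAAANNGAA, was matched in those of Psmb3, Psmd4 and Psmd9, which is 8.11% against 7.13%. None of the 3 motifs was matched between the starts of Psmb9 and Tap1. A match to these letters is a description of the window and no evidence of binding, and the array did not measure binding.

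Detection required that the signal exceed its noise at least 3-fold, as the manufacturer advises. So counted, 31 of the 40 members were detected on all 9 arrays, 33 were on 5 or more, and 35 passed the filter for testing of 3 or more. Psmb6 and Psme4 were detected on 8 arrays each. The members below detection on most arrays were Psme1 (4 arrays), Psmc3ip (3 arrays), Psma2 (1 array) and the lid or chaperone genes Psmd3, Psmd8, Psmd9 and Psmd14 (0 arrays). The highest signal-to-noise ratio of these last 4 genes on any array was 2.52, for Psmd14. Since the partners of these subunits in the same complex were well detected, a probe without signal says nothing firm about the transcript. No probe carried the symbols Psmd1, Psmd6, Psma8 or Psmb11. By RefSeq accession Psmd6, a lid subunit, was found as 2400006A19Rik and was detected on all 9 arrays (SD of its log2 signal 0.14), and Psmb11, the thymus-specific subunit, as 5830406J20Rik on 0 arrays.

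The share of probes detected per array was between 33.7% and 48.1%, and it was lowest for mice 7 and 8 of feed B. Of the enterocyte markers Vil1, Epcam, Cdh1, Krt20 and Fabp2 were detected on all 9 arrays, Alpi (as Akp3) was detected on 0, and Lct and Sis were not matched to a probe. Fabp6, the bile acid binding protein of the ileum, had a log2 signal of 15.81, 4.67 and 17.84 in mice 7, 8 and 10 of feed B, 8.92, 12.19 and 11.81 in mice 1, 3 and 4 of feed K, and 8.10, 8.96 and 19.51 in mice 4, 8 and 11 of feed G. It was thus highest in mouse G 11, followed by mice B 10 and B 7. The segments were 2 cm long and held all layers of the gut wall, so that fewer cells of a type and less RNA per cell cannot be told apart in any value below.

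Most proteasome genes had a uniform expression over the 9 mice after quantile normalization, and the immunoproteasome genes stood outside this. Among the 31 members detected throughout, 24 (77.4%) stayed within a 2-fold range, maximum over minimum, against 57.9% of all 5887 genes detected on all arrays. Their median SD of log2 signal was 0.20, against 0.29 over those 5887 genes. In neither comparison were the members matched to those genes for brightness. None of the 3 immunoproteasome genes was within a 2-fold range. In a ranking by CV%, the coefficient of variation in percent of values studentized per array, 22 of the 40 members (55.0%) were among the lowest 10.0% of all genes. The CV% of studentized values depends on the distance of a probe from the mean of its array, and therefore on its brightness. The lower spread of the members depended on quantile normalization: with median scaling their median SD was 0.42 against 0.44 of all genes and 5 members were within a 2-fold range, and with the table of the whole series the SDs were 0.38 and 0.39 and 16 members were within it. No share of all genes is given for these counts, so they do not show whether the members were more uniform than other genes there.

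**Figure D1:**
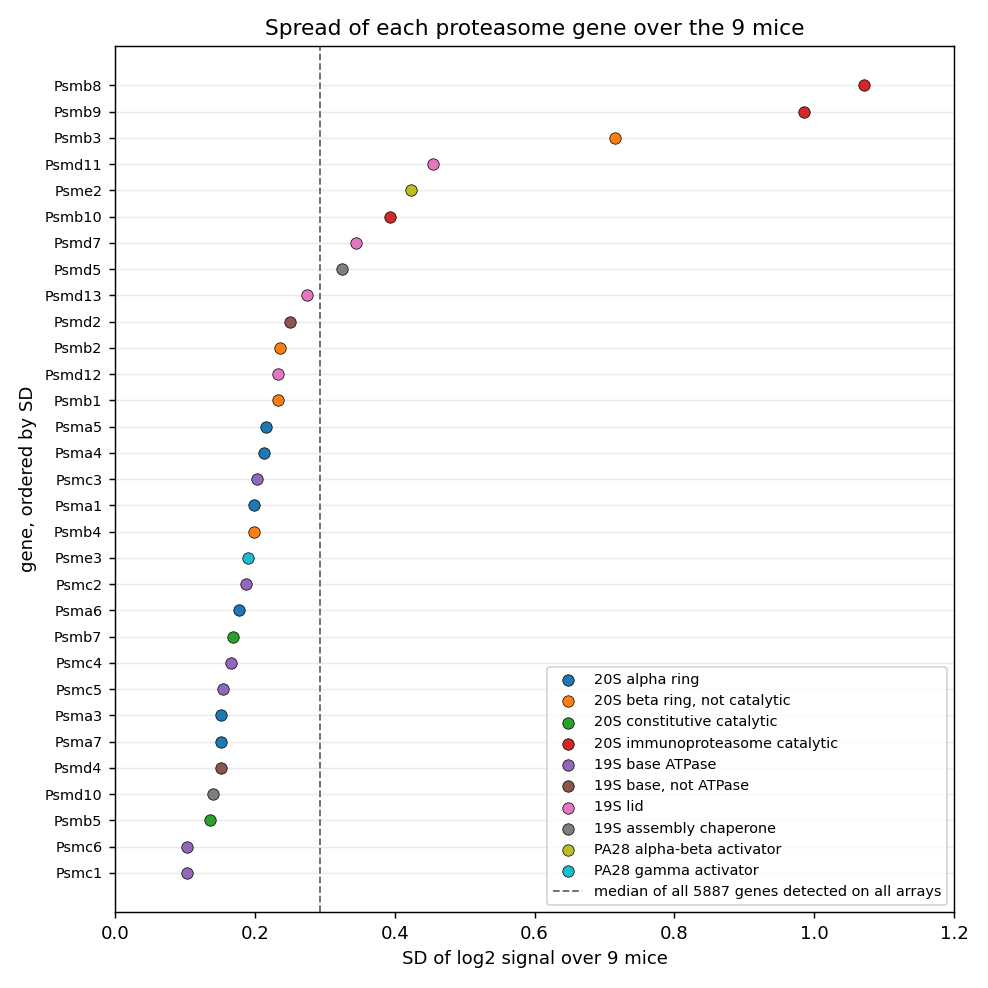
SD of log2 signal over the 9 mice for each of the 31 proteasome genes detected on all arrays, ordered by SD and coloured by role. The dashed line is the median of all 5887 genes detected on all arrays (0.29). Psmb8 and Psmb9 have the widest spread, at 1.07 and 0.99, and Psmc1 and Psmc6 the smallest, at 0.10 each.

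The 3 smallest SDs belonged to Psmc1 and Psmc6, ATPases of the 19S base, and to Psmb5. The log2 signal of Psmc1 was 12.99, 12.79 and 13.07 in mice 7, 8 and 10 of feed B, 12.99, 12.99 and 13.12 in mice 1, 3 and 4 of feed K, and 12.90, 12.99 and 12.84 in mice 4, 8 and 11 of feed G. The SD was 0.10, the range 1.25-fold, and feeds K and G were narrowly separated. Psmc6 read 13.11, 12.93 and 13.09 on feed B, 12.92, 12.83 and 13.04 on feed K, and 12.88, 12.87 and 12.88 on feed G, with SD 0.10 and range 1.21-fold. Psmc1 and Psmc6 ranked at 1.41% and 1.43% from below by SD among the 5887 genes. Before normalization the signal of Psmc1 ran from 4707 in mouse B 8 to 11973 in mouse K 3, so that its uniformity is relative to the other probes of an array.

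The spread is given by role, after quantile normalization. The 6 alpha ring genes detected on all arrays (Psma1, Psma3, Psma4, Psma5, Psma6 and Psma7) had SDs of 0.15 to 0.22 and ranges of 1.41-fold to 1.58-fold. The 6 base ATPases Psmc1 to Psmc6, which unfold substrates and thread them into the core, had SDs of 0.10 to 0.20 and ranges of 1.21-fold to 1.58-fold. Of the other base subunits, Psmd4, a ubiquitin receptor, had an SD of 0.15 and Psmd2, a scaffold of the base, one of 0.25. The 4 lid members detected on all arrays were less uniform, with ranges of 1.64-fold to 2.45-fold. Their SDs were 0.23 (Psmd12), 0.28 (Psmd13), 0.34 (Psmd7) and 0.45 (Psmd11). Psmd6, the lid subunit present under another symbol, is not among them and varied less (SD 0.14). The probes of these 4 members were also dimmer than most ATPase probes. Their mean log2 signals were 9.94 to 11.36, against 11.59 to 13.15 for the ATPases. Whether the wider spread follows from brightness was not tested. The base chaperones Psmd10 and Psmd5 had SDs of 0.14 and 0.32. For Psme3, the nuclear activator PA28 gamma, the SD was 0.19 and the range 1.55-fold.

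Among the non-catalytic beta subunits, Psmb1, Psmb2 and Psmb4 had SDs of 0.20 to 0.24, and Psmb3 one of 0.71 with a range of 3.91-fold. Averaged over its probes, Psmb3 read 9.44, 9.24 and 10.44 on feed B, 10.75, 8.85 and 9.97 on feed K, and 9.48, 8.85 and 8.78 on feed G, with overlapping feeds. It was measured by a pair of probes that disagreed. One was detected on all 9 arrays with an SD of 0.16, and the other on 3 arrays with an SD of 1.35, and their correlation over the mice was 0.449. Taking the brightest probe of each gene, the SD of Psmb3 was 0.16 and its range 1.44-fold, so that its wide spread belongs to the dim probe. The 3 probes of Psma3 were each detected on all arrays, yet their correlations over the mice were -0.0716, -0.431 and 0.528. Their SDs were 0.39, 0.16 and 0.29 and their ranges 2.33-fold, 1.40-fold and 1.77-fold. The SD of 0.15 and range of 1.41-fold of Psma3 thus belong to the average of probes that disagreed. The 2 probes of Psmb5 had a correlation of 0.536.

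**Figure D2:**
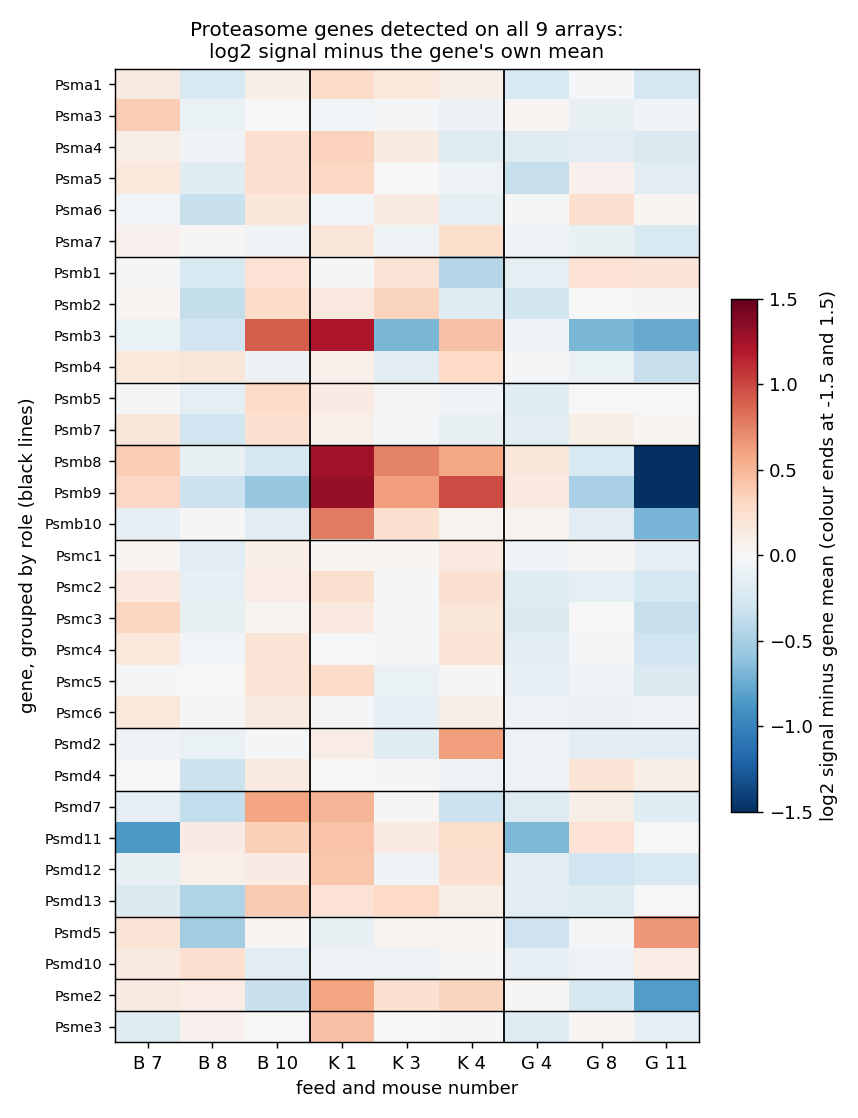
Log2 signal of the 31 proteasome genes detected on all 9 arrays, each shown as the difference from its own mean over the mice. Columns are mice ordered by feed, rows are genes grouped by role, and the colour scale ends at -1.5 and 1.5. The rows of Psmb8, Psmb9, Psmb10 and Psme2 are red to pale red in the feed K mice and blue in mouse G 11, the row of Psmb3 has strong colours of both kinds, and most other rows are pale.

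The immunoproteasome genes had their highest values on feed K and their lowest in mouse G 11, differences that did not pass the test across all genes. The log2 signal of Psmb8 was 13.13, 12.65 and 12.51 in mice 7, 8 and 10 of feed B, 14.02, 13.51 and 13.35 in mice 1, 3 and 4 of feed K, and 12.93, 12.54 and 10.23 in mice 4, 8 and 11 of feed G. All feed K mice were above all others, and mouse G 11 lay far below the rest. The range over the mice was 13.8-fold (SD 1.07), which ranked at 98.5% by SD among the 5887 genes. The probe of Psmb8 was clearly above detection throughout, with a signal-to-noise ratio of 12.6 in mouse G 11 and of 23.4 to 95.4 in the others. Before normalization its signal in mouse G 11 was 1520, the lowest of the 9 arrays, while Psmc1 read 9490 on the same array.

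The log2 signal of Psmb9 was 13.63, 12.99 and 12.74 on feed B, 14.62, 13.94 and 14.29 on feed K, and 13.47, 12.82 and 11.33 on feed G, mice in the same order. The order of the feeds was that of Psmb8, with feed K wholly above the others and mouse G 11 lowest, and the range was 9.77-fold (SD 0.99). Psmb10 read 13.23, 13.36 and 13.18 on feed B, 14.13, 13.59 and 13.40 on feed K, and 13.40, 13.18 and 12.65 on feed G. Feed K was again above the others, but not with median scaling or the table of the whole series, and mouse K 4 and mouse G 4 were nearly level, and the range was narrower at 2.79-fold (SD 0.39). Without mouse G 11 the range was 2.83-fold for Psmb8, 3.65-fold for Psmb9 and 1.92-fold for Psmb10.

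The PA28 genes could be followed only in part. The probe named Psme2, which the files also assign to the copy Psme2b, had a log2 signal of 15.59, 15.56 and 15.11 on feed B, 16.04, 15.67 and 15.79 on feed K, and 15.46, 15.21 and 14.61 on feed G. It thus followed Psmb8 and Psmb9, with feed K wholly above both other feeds, mouse G 11 lowest and a range of 2.71-fold (SD 0.42). Psme1 had a log2 signal of 6.59, 6.87 and 5.55 on feed B, 6.80, 7.80 and 6.48 on feed K, and 7.25, 7.25 and 5.74 on feed G. Its signal-to-noise ratio was below 3 on 5 arrays and at most 5.62, so that no order of the feeds can be read from it.

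The constitutive subunits Psmb5 and Psmb7 had narrow, overlapping values. The log2 signal of Psmb5 was 12.45, 12.34 and 12.75 on feed B, 12.60, 12.50 and 12.41 on feed K, and 12.29, 12.48 and 12.48 on feed G, with a range of 1.37-fold (SD 0.14). Psmb7 read 13.52, 13.04 and 13.56 on feed B, 13.42, 13.31 and 13.23 on feed K, and 13.17, 13.43 and 13.38 on feed G, with a range of 1.43-fold (SD 0.17). In both the feeds overlapped, and mouse G 11 lay within the values of the other mice.

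Psmb6 differed from the other constitutive subunits. Its log2 signal was 9.51, 9.27 and 8.98 on feed B, 9.23, 8.54 and 9.33 on feed K, and 8.48, 8.36 and 8.48 on feed G. All feed G mice were below all others, by little in the case of mouse K 3, and the range was 2.22-fold (SD 0.44). The signal-to-noise ratio of this probe was low, 2.59 to 13.5, with mouse B 8 below the threshold.

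**Figure D3:**
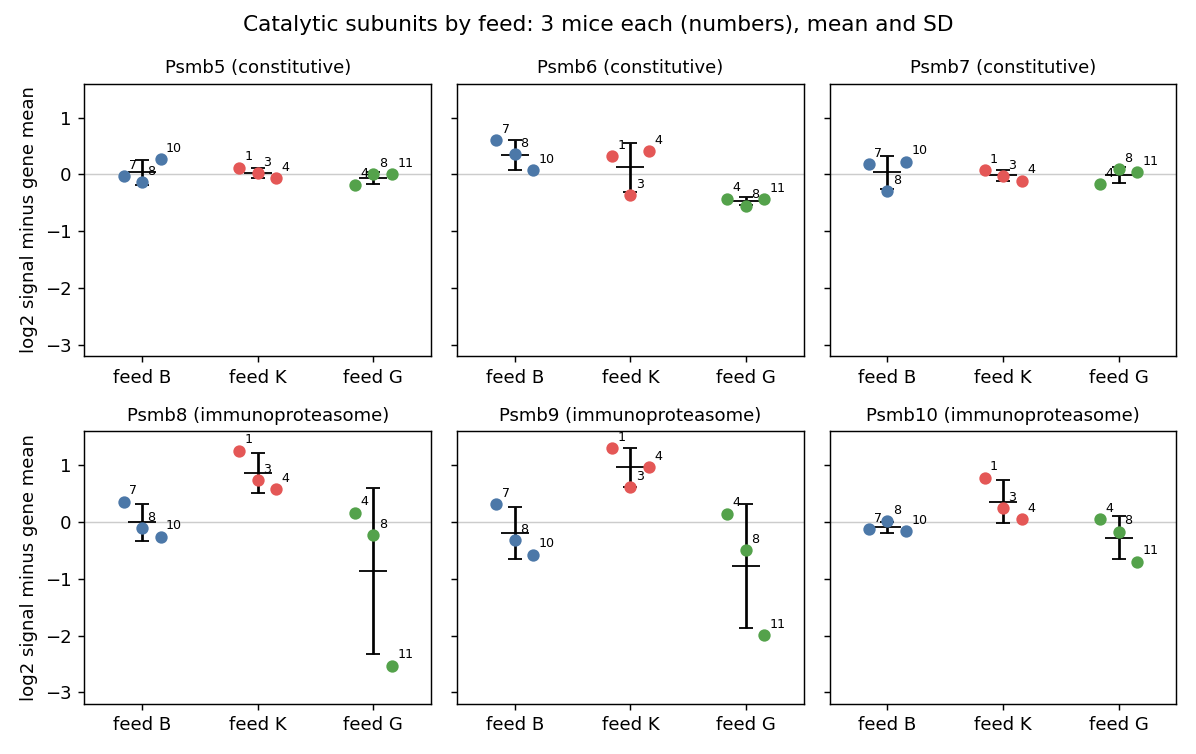
Log2 signal of the 6 catalytic subunits, each minus its mean over the 9 mice, by feed. Points are mice with their numbers, and the horizontal bar and error bar are the mean and SD of 3 mice. Feed K lies above feeds B and G for Psmb8, Psmb9 and Psmb10, mouse 11 of feed G is lowest for these 3 genes, and Psmb5 and Psmb7 stay near 0.

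No gene tested passed the comparison of the feeds. When the 3 feeds were compared by limma's F test with Benjamini-Hochberg adjustment, 0 of the 35 members tested and 0 of 9652 genes (0.0%) had an adjusted p under 0.05, and the smallest adjusted p of any gene was 0.351. Among the alternatives, 1 gene passed with detection on all 9 arrays required, 1 with an unmoderated F test and 3 without mouse B 10, none of them a member. At an unadjusted p under 0.05 stood 2 of the 35 members, Psmb9 and Psmb6, a share of 5.71% against 5.37% of all genes. The unadjusted p was 0.0261 for Psmb9 and 0.0289 for Psmb6 in this limma F test, with an adjusted p of 0.894 for both, and that of Psmb8 was 0.0713 with an adjusted p of 0.903. No difference between feeds below is therefore a call, and with 3 mice a feed the precision is limited by their number.

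After quantile normalization the pairs of feeds compared as follows. For K minus B, 0 of 35 members had an unadjusted p under 0.05 in limma's fit, against 6.31% of all genes. For G minus B it was 1 member, Psmb6, or 2.86% against 5.74% of all genes. For G minus K it was 6 members, Psmb6, Psmb8, Psmb9, Psmb10, Psmd12 and Psme2, or 17.1% against 4.54% of all genes. All 6 were lower on feed G. These counts depended on the normalization: with median scaling they were 4 for K minus B (Psmb9, Psmb10, Psmd2 and Psme2, against 12.7% of all genes), 0 for G minus B (against 18.6%) and 2 for G minus K (Psmb8 and Psmb9, against 3.72%). With the table of the whole series they were 2 (Psmb9 and Psmd2, against 6.31%), 0 (against 6.40%) and 2 (Psmb8 and Psmb9, against 3.63%). Without mouse K 1 only Psmb9 was left for G minus K, against 2.97% of all genes. The difference was -1.74 (SE 0.52) for Psmb9 and -1.73 (SE 0.63) for Psmb8 on the log2 scale, which is 3.35-fold and 3.31-fold. It was -0.74 (SE 0.27) for Psme2, -0.63 (SE 0.27) for Psmb10, -0.59 (SE 0.25) for Psmb6 and -0.43 (SE 0.18) for Psmd12, a lid subunit. With Benjamini-Hochberg adjustment over all genes in limma, the adjusted p was 0.960 for each of these 6.

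The differences were smaller without mouse G 11. Then G minus K was -0.89 (SE 0.30) for Psmb8, -1.13 (SE 0.36) for Psmb9, -0.41 (SE 0.26) for Psmb10 and -0.50 (SE 0.24) for Psme2, and in limma's F test Psmb8 and Psmb9 were the 2 members at an unadjusted p under 0.05. G minus B was then -0.03 (SE 0.30) for Psmb8 and 0.02 (SE 0.36) for Psmb9. The difference of Psmb6 depended on the normalization: G minus B was -0.82 (SE 0.25) after quantile normalization, -0.28 (SE 0.25) after median scaling and -0.50 (SE 0.25) in the table of the whole series.

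Feeds that did not overlap at all were counted among the 34 tested members with a value on every array. Feed K lay wholly above feed B for 4 members (11.8%), namely Psmb8, Psmb9, Psmb10 and Psme2, against 6.26% of all genes, and wholly below it for 0 members against 3.68%. Feed G lay wholly below feed B for 7 members (20.6%), namely Psma4, Psma7, Psmb6, Psmc2, Psmc5, Psmc6 and Psmd12, against 4.65% of all genes, and wholly above it for 0 against 6.3%. Feed G lay wholly below feed K for 12 members (35.3%) against 7.36% of all genes, and wholly above it for 0 against 6.31%. These 12 were the 4 genes of the first group with Psma1, Psma7, Psmb6, Psmc1, Psmc2, Psmc4, Psmd12 and Psmd13. These counts moved with the scaling of the arrays. Feed K lay wholly above feed B for 6 members with median scaling, against 16.9% of all genes and without Psmb10, and for Psma7, Psmb8, Psmb9 and Psmd2 with the table of the whole series, against 7.71%. With median scaling and with the table of the whole series 4 members lay wholly lower on feed G than on feed K, in both cases Psmb6, Psmb8, Psmb9 and Psmd2, against 2.98% and 2.91% of all genes.

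Over the 35 members tested, the median difference was 0.08 for K minus B, -0.15 for G minus B and -0.25 for G minus K on the log2 scale, and the corresponding medians of all genes were 0.05, 0.06 and -0.01. The share of members with a positive difference was 24 of 35, 6 of 35 and 8 of 35, against 56.9%, 57.1% and 49.1% of all genes. These counts include Psmc3ip, which is not a subunit, with differences of -0.08, 0.61 and 0.68. Median scaling moved the median of all genes to 0.41, 0.53 and 0.11. Relative to the median of all genes, the members lay at 0.03, -0.21 and -0.24 after quantile normalization, and at 0.09, -0.15 and -0.24 after median scaling. By role, G minus K was negative for all 4 lid genes tested (median -0.38), for all 6 ATPases (median -0.21) and for 4 of 6 alpha ring genes (median -0.24). Of these genes only Psmd12, in the lid, had an unadjusted p under 0.05 in limma's fit.

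**Figure D4:**
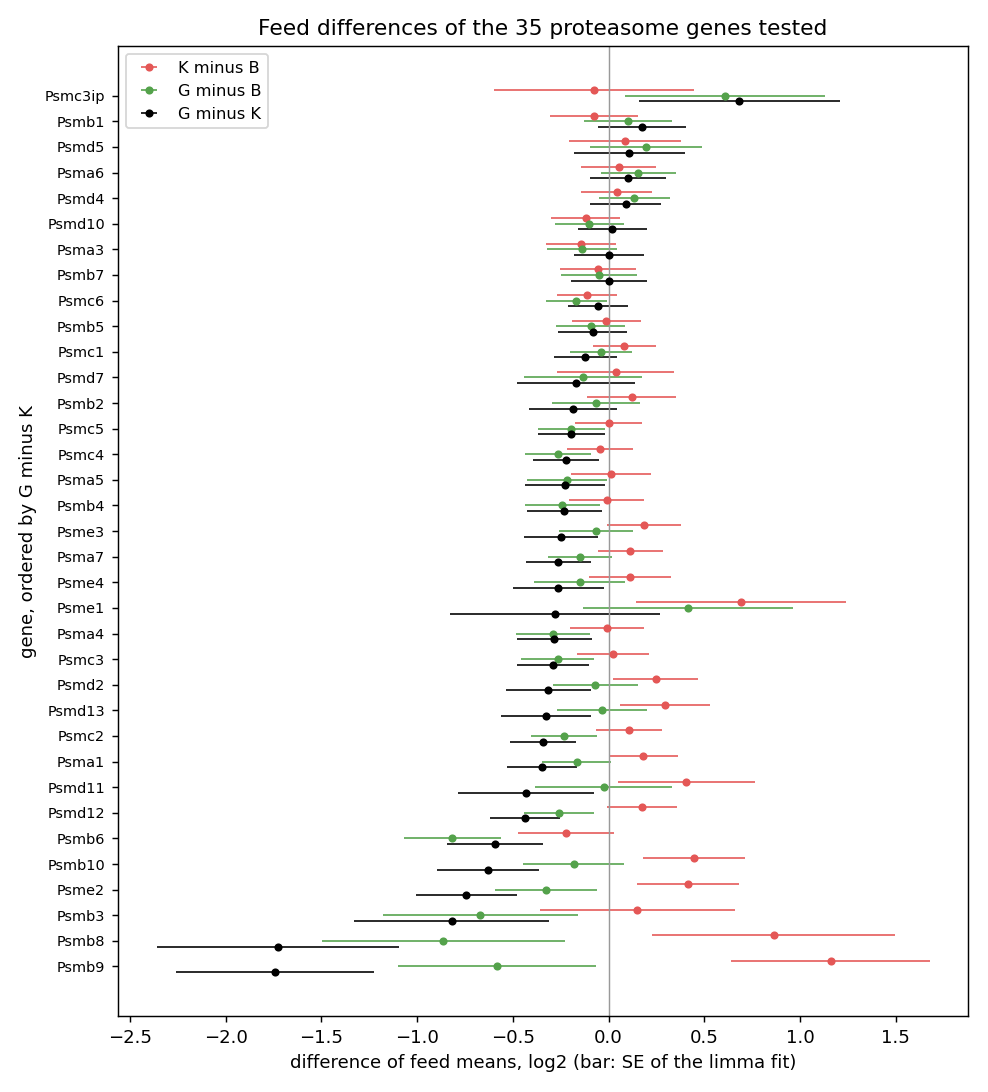
Differences of feed means on the log2 scale for the 35 members tested, Psmc3ip among them, ordered by G minus K. Points are K minus B (red), G minus B (green) and G minus K (black), and bars are the standard errors of the limma fit. Psmb9 and Psmb8 lie at -1.74 and -1.73 for G minus K, and most other genes lie within 0.5 of 0.

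The signals of inducible and constitutive subunit genes were compared as the log2 difference between Psmb8 and Psmb5, Psmb9 and Psmb6, and Psmb10 and Psmb7, averaged over the 3 pairs in each mouse. The arrays measured RNA, so the exchange of subunits in the complex was not measured. Signals of different probes have no common scale, so that only differences between mice can be read. Each difference is given minus its mean over the mice, so that a negative value lies below that mean. It does not mean that the inducible signal was below the constitutive signal. Centred in this way, the averaged difference was -0.06, -0.11 and -0.52 in mice 7, 8 and 10 of feed B. It was 0.94, 0.66 and 0.46 in mice 1, 3 and 4 of feed K, and 0.39, -0.14 and -1.61 in mice 4, 8 and 11 of feed G. All feed K mice were above all others, mouse G 4 closely so, and the mice of feed G spread most (SD 1.03, against 0.25 on feed B and 0.24 on feed K). The feed means differed by 0.92 for K minus B, -0.22 for G minus B and -1.14 for G minus K. Without mouse G 11 the last 2 were 0.35 and -0.56, so that the order of feeds B and G turned with this mouse, while feed K stayed highest. Of the 3 pairs, Psmb9 and Psmb6 contributed most to K minus B, with 1.38, and Psmb8 and Psmb5 most to G minus K, with -1.64. K minus B of the constitutive genes alone was -0.01 for Psmb5, -0.05 for Psmb7 and -0.22 for Psmb6, whose probe had a low signal-to-noise ratio.

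Psmb8, Psmb9 and Psmb10 varied together from mouse to mouse. In a family of 12 gene pairs, 6 had a Pearson correlation over the 9 mice with an adjusted p under 0.05 (two-sided exact permutation test, Benjamini-Hochberg over the 12 pairs). The closest were Tap1 with Psmb9 and with Psmb8, followed by Psmb8 with Psmb9. For Psmb9 and Tap1, r was 0.973 (exact permutation p = 1.93e-05, adjusted 0.000165) and rho 0.950 (exact permutation p = 0.000353, adjusted 0.00212). For Psmb8 and Tap1, r was 0.973 (exact permutation p = 6.06e-05, adjusted 0.000243) and rho 0.933 (exact permutation p = 0.000750, adjusted 0.00225). For Psmb8 and Psmb9, r was 0.963 (exact permutation p = 2.76e-05, adjusted 0.000165) and rho 0.983 (exact permutation p = 4.96e-05, adjusted 0.000595). The starts of Psmb9 and Tap1 flank the 225 bases shown above.

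These 3 relations held with the feed means subtracted and, separately, without the extreme mice. The first values still include mice G 11 and K 1, the second still include the feed differences, and both steps were not combined. With the feed means subtracted, r was 0.952 for Psmb9 and Tap1, 0.969 for Psmb8 and Tap1, and 0.955 for Psmb8 and Psmb9. Without mice G 11 and K 1, which lay farthest from the median, it was 0.901, 0.875 and 0.955. Psmb10, which is encoded on chromosome 8, followed Psmb8 with r = 0.893 (rho 0.933, exact permutation p of r = 0.00316, adjusted 0.00759) and Psmb9 with r = 0.888 (rho 0.917, exact permutation p of r = 0.00219, adjusted 0.00656). For these r fell to 0.760 and 0.672 without mice G 11 and K 1. Psme2, on chromosome 14, was not in this family, and the 6 correlations among Psmb8, Psmb9, Psmb10 and Psme2 lay between 0.888 and 0.971.

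**Figure D5:**
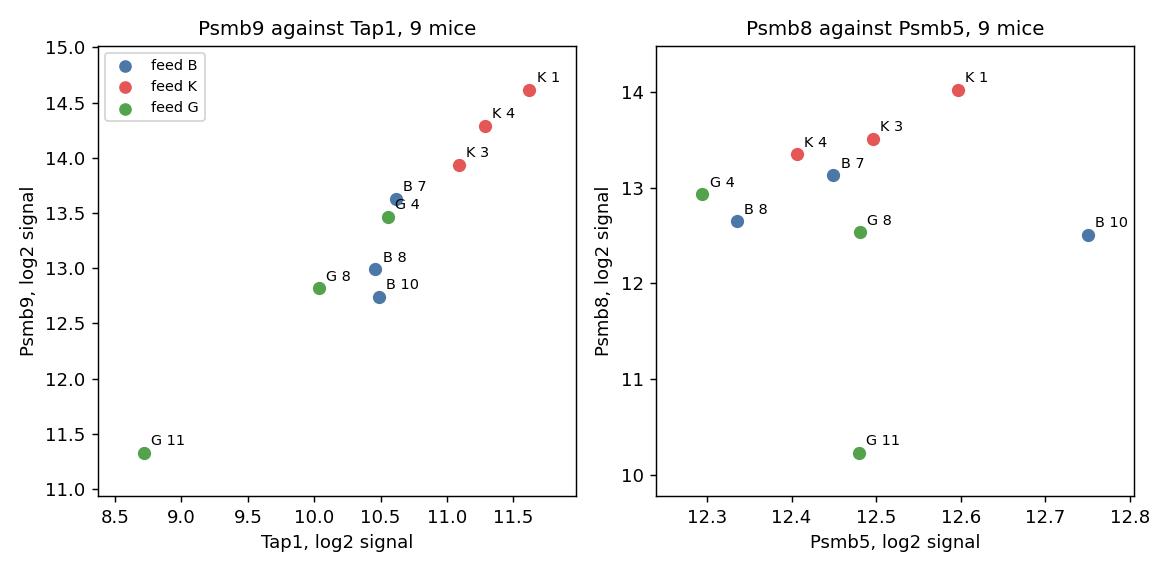
Log2 signal of Psmb9 against Tap1 (left) and of Psmb8 against Psmb5 (right) in the 9 mice, coloured by feed and labelled by feed and mouse number. The points of the left panel lie near a line from mouse G 11 to mouse K 1 (r = 0.973), and those of the right panel do not (r = 0.0195).

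No inducible subunit had a correlation past the threshold with the constitutive subunit it replaces. Pearson's r was 0.0195 for Psmb8 and Psmb5 (rho 0.0333, exact permutation p of r = 0.954), 0.484 for Psmb9 and Psmb6 (rho 0.550, exact permutation p of r = 0.188) and -0.115 for Psmb10 and Psmb7 (rho -0.383, exact permutation p of r = 0.786). With 9 mice such values do not show that the levels are independent. Among the constitutive subunits, Psmb5 and Psmb7 had r = 0.801 (exact permutation p = 0.00865, adjusted 0.0173), with rho 0.733 (exact permutation p = 0.0311, adjusted 0.0622) and r = 0.706 without mice B 10 and G 4. Psmb6 followed neither, with r = 0.0625 for Psmb5 and 0.0307 for Psmb7. For Psme1 and Psme2, r was 0.535 (rho 0.283, exact permutation p of r = 0.135) and -0.351 without mice B 10 and G 11. Over the 27 other members detected on all arrays, the 351 pairwise correlations had a median of 0.342 and ran from -0.843 to 0.936.

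The genes of MHC class I antigen processing had differences in the directions of the immunoproteasome genes. Tap1 had a log2 signal of 10.62, 10.46 and 10.49 on feed B, 11.62, 11.09 and 11.28 on feed K, and 10.55, 10.03 and 8.72 on feed G, so that feed K was highest and mouse G 11 lowest. All 9 tested genes of this list had a positive K minus B (median 0.56) and a negative G minus K (median -0.75), against 56.9% and 49.1% of all genes with a positive difference, and these comparisons share the feed K mice. In mouse G 11, 5 of the 9 had their lowest value, as did 13.4% of all genes and 4 of the 5 smooth muscle markers. At an unadjusted p under 0.05 in limma's F test stood 1 of them, Tap1 (unadjusted p = 0.0180), against 5.37% of all genes. In G minus K it was 4, namely Tap1 (-1.56), Tap2 (-1.18), Tapbp (-0.67) and H2-D1 (-0.96), against 4.54% of all genes. None had an adjusted p under 0.05.

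Of the 14 interferon response genes tested, 8 were positive in K minus B (median 0.15), near the 56.9% of all genes. In G minus K 3 were positive and 11 negative (median -0.47), against 49.1% of all genes positive. Irf1, the interferon gamma induced transcription factor, had a log2 signal of 13.16, 13.09 and 13.07 on feed B, 13.33, 13.39 and 13.73 on feed K, and 12.84, 12.84 and 12.53 on feed G. The 3 feeds did not overlap, with an unadjusted p of 0.0112 (adjusted p 0.747) in limma's F test. Isg15 (unadjusted p = 0.00820) and Cxcl10 (unadjusted p = 0.0408) were the other genes of this list under 0.05 in limma's F test, and K minus B was -0.76 for Isg15 and 1.26 for Cxcl10. Ifng itself was detected on 0 arrays.

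No tested gene of the supporting machinery of the proteasome had an unadjusted p under 0.05 between feeds. Of 15 tested genes for assembly factors, associated enzymes and inducers, among them Pomp, the core's maturation factor, Usp14, which trims ubiquitin chains at the cap, and Nfe2l1, the transcription factor that restores proteasome levels, 0 had an unadjusted p under 0.05 in limma's F test or in any pair of feeds, and their median SD was 0.27. Of 8 tested ubiquitin genes, 0 did so as well, with a median SD of 0.31. The share of all genes was 5.37% in the F test, so 0 in lists this short says little. In G minus K, 12 of the 15 and 6 of the 8 were negative (medians -0.11 and -0.17), against 49.1% of all genes positive. The summed signal of the first list was 37554 to 39043 on feed G, below feed K (39232 to 47275) and feed B (40067 to 44989). The sums of the ubiquitin genes overlapped.

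Markers of other cells were set beside the immunoproteasome result. The summed normalized signal of 9 leukocyte markers was 2864 to 5762 on feed B, 1491 to 5491 on feed K and 3274 to 6714 on feed G, with mouse K 1, the highest in Psmb8 and Psmb9, at the lowest sum. Itgax was detected on 0 arrays and Cd8a was not matched to a probe. The summed signal of Fabp6 and Slc10a2, the markers of the ileum, was 225 to 238644 on feed B, 629 to 5027 on feed K and 367 to 753280 on feed G, with the highest value in mouse G 11, the mouse with the lowest Psmb8. The next highest sums were 238644 in mouse B 10 and 58209 in mouse B 7, with a log2 Psmb8 of 12.51 and 13.13. Mouse B 8, with the lowest sum, had a log2 Psmb8 of 12.65. The 5 smooth muscle markers summed to 87911 to 102235 on feed B, 80659 to 109855 on feed K and 64419 to 104050 on feed G, with mouse G 11 at the lowest. The part of the position along the gut, or of the makeup of the segment, in the low values of mouse G 11 was not tested.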

How the data were processed

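RNA from a jejunal segment of 2 cm of each of 9 mice was reverse transcribed with oligo-dT primers into labelled cDNA from 40 µg of RNA and hybridised to 1 array of oligonucleotide probes per mouse, read by chemiluminescence. The deposited array files hold per probe the signal, a background-corrected intensity on a linear scale made by the authors' scanner software, and its signal-to-noise ratio, a score. The deposited table of the whole series holds a further score, the assay-normalized signal: all 297108 values were identical to that column of the array files. It is linear and not centred, its median per array was between 1.06 and 1.53, and what it is divided by is not given in the sources used here. The submitters' processing notes name RMA without a version.

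Spots flagged above 5000 were dropped, and the remaining signals were quantile normalized and then log2 transformed. Probes of a gene were averaged, and genes detected (signal-to-noise ratio of at least 3) on at least 3 arrays were tested with limma 3.58.1 (R 4.3.3) with no covariate, Benjamini-Hochberg adjusted over all genes. Correlations used an exact permutation test over the mice. Python 3.11.15, numpy 2.4.6, pandas 2.3.3, scipy 1.17.1 and matplotlib 3.10.9 were used, and the scripts were tested on simulated data. Members, gene lists and tests were chosen with earlier results of these data known. All members could be named, those detected on under 5 arrays always. Values per mouse were given for the 6 catalytic subunits, Psme1 and Psme2, members at an unadjusted p under 0.05 in the F test, and the 3 members with the smallest and the 3 with the largest SD. Of the related lists, genes at an unadjusted p under 0.05 in the F test or in the correlation family were named. Antigen processing genes at that threshold in G minus K were named as well. Other genes under it only in a pair of feeds were not named, and other names were added as background. Each replicate is a separate mouse, and the number of arrays limits the precision. Alternatives were median scaling, the table of the whole series, other detection filters, failed spots kept, a floor at percentile 5, the brightest probe of a gene, an unmoderated F test and leaving out each mouse. The counts of feeds that did not overlap, with their alternatives, were chosen after seeing the data.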

Additional observations from a re-analysis of the deposited data

Results flagged for a closer look

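The gap between the extreme mouse and its nearest neighbour was divided by the range over the 9 mice. It was above Dixon's limit of 0.493 for 4 of the 33 members examined. About 1.65 would be expected if the values of each gene were normally distributed in 1 group. The share of all genes above the limit was not counted, so an excess among the members is not shown. For Psmb8 it was 0.601, with mouse G 11 at 10.23 and the next mouse at 12.51. For Psma3, an average of probes that disagreed, it was 0.696, with mouse B 7 highest at 12.79 and the next at 12.44. For Psmd2 it was 0.637, with mouse K 4 highest at 12.89 and the next at 12.37. For Psme3 it was 0.599, with mouse K 1 highest at 11.72 and the next at 11.35. The mice of all feeds were taken as 1 group here, and all values are log2 signals after quantile normalization.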

How the results depend on the processing

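With 3 outbred mice a feed, even the 3.35-fold difference of Psmb9 did not pass the adjusted test, and probes near the detection threshold (Psmb6, Psme1) are the least certain. No member passed the adjusted F test in limma under any of the 18 alternatives. The 2 members at an unadjusted p became 1 with median scaling and 1 with the table of the whole series, and 1 to 3 when a mouse was left out, against 11.1%, 5.09% and 3.98% to 10.2% of all genes. The unmoderated F test gave Psmb6, Psmc2 and Psmd12, without Psmb9. The median difference of the members became 0.50 (K minus B), 0.38 (G minus B) and -0.13 (G minus K) with median scaling and 0.36, 0.15 and -0.16 with the table of the whole series. Leaving out a mouse gave -0.048 (without mouse B 8) to 0.15, -0.22 to -0.11 and -0.29 to -0.22. The median SD of the members became 0.42 and 0.38, and 0.19 to 0.22 when a mouse was left out. Members within a 2-fold range numbered 5 with median scaling and 24 to 27 when a mouse was left out, counts given without a share of all genes. Feed K lay wholly above feed B for 4 to 8 members when a mouse was left out (7 without B 10, against 16.7% of all genes, and 8 without K 3, against 12.4%). Feed G lay wholly below feed B for 0 members with median scaling, 2 with the table of the whole series and 7 to 15 when a mouse was left out (15 without B 8, 11 without G 4), against 0.638%, 1.67% and 4.63% to 11.9% of all genes. It lay wholly below feed K for 4, 4 and 12 to 19 (19 without K 3), against 2.98%, 2.91% and 7.33% to 17.2% of all genes. The number of correlated pairs was 4 to 6. The inducible minus constitutive difference for K minus B lay between 0.78 and 1.04 under all its alternatives. No paired analysis was possible because each pair of feeds shares fewer than 2 mouse numbers. A slide or scan batch was not fitted, since each array has its own barcode and the labels name no batch. Whether arrays were hybridised or scanned in batches is thus not known here, and an effect of such batches was not tested.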
